A study of Mus musculus with 36 samples.

Results

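RNA sequencing measured what 1 day in medium conditioned by mutant SOD1 astrocytes changed in mouse motor neurons, relative to 1 day in medium of non-transgenic astrocytes. The comparison took every library labelled with mutant SOD1 (mSOD1) medium and 1 day, 6 in all, and every library labelled with non-transgenic (NTg) medium and 1 day, also 6. These are 12 of the 36 libraries of the study, which also holds wild-type SOD1 (wtSOD1) medium and a second time point of 3 days. All 21761 listed genes were looked at, and 15207 had enough reads to be tested.

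The mSOD1 group received medium from astrocytes of transgenic mice that over-express SOD1 with the G93A substitution, and the NTg group received medium from astrocytes without a transgene. The labels describe the recipient cells of both groups alike, as motor neurons made from embryonic stem cells of the strain Hlxb9-GFP1Tmj, in which the promoter of HB9 (Mnx1) drives eGFP, or eGFP and CD2, with cells that bear CD2 held back on a magnetic column. That promoter marks motor neurons, so a library stands for the cells the column kept and for what they became in culture. Astrocytes were grown from newborn mice, either from spinal cords or from cortices, and were described as 95% GFAP-positive with 5% microglia before shaking. Their medium was frozen, enriched with glucose, antibiotics, GDNF, BDNF and CNTF, and filtered, and the tissue behind each library's medium was not known here. The replicate number is the experiment number of the labels, from 1 to 6, and libraries with the same number in both groups form pairs.

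Mutations of SOD1, an enzyme that removes superoxide, cause a familial form of amyotrophic lateral sclerosis, a disease in which motor neurons die, and astrocytes that carry them can harm motor neurons in culture. Cells answer type I interferon through a receptor that activates STAT2, among other factors. With IRF9 it is part of the complex ISGF3, which binds interferon-stimulated response elements (ISRE) in the promoters of antiviral genes. NF-kB is a family of transcription factors held in the cytosol by inhibitors such as the product of Nfkbia. Cytokines of injured or inflamed tissue release it, and its targets include chemokines, adhesion molecules and its own inhibitors.

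The mSOD1 libraries held 8577511 to 18840319 reads and the NTg libraries 4386946 to 19659809. Levels are given as CPM, the reads of a gene per M reads of a library, on scaled library sizes. The motor neuron factor Mnx1 lay at 86.9, 106 and 124 CPM (lowest, median and highest) in mSOD1 medium, against 87.9, 115 and 135 CPM in NTg medium, and neither it nor the acetylcholine enzyme Chat passed (log2 differences -0.08 ± 0.13 and -0.04 ± 0.10, SE). Chat overlaps Slc18a3, another cholinergic gene. Isl1 and the mouse gene Sod1 did not pass the threshold either, with -0.07 ± 0.10 and -0.08 ± 0.08. Gfap, the defining astrocyte marker, was at 0 in 4 of the mSOD1 libraries and reached 1.18 CPM in NTg replicate 6. The proliferation gene Mki67 stood at 101 to 151 CPM in mSOD1 medium and 108 to 152 CPM in NTg medium, and the fibroblast gene Col1a1 at 36.4 to 62.4 CPM in mSOD1 medium and 33.4 to 73.7 CPM in NTg medium, so RNA of dividing cells and of mesenchyme was part of both groups. In bulk RNA, fewer cells of a type and less RNA per cell cannot be told apart.

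NTg replicate 6, the smallest library, stood apart from the other 11 on the first principal component of these libraries, at -58.7 against -0.918 to 12.05. It carried more RNA of marker genes of 2 other cell types. Microglia and macrophage markers summed to 42.2 to 52.6 CPM in mSOD1 libraries and 46 to 49.3 CPM in NTg replicates 1 to 5, but to 170 CPM in NTg replicate 6, where 19 of the 22 markers had their highest level of the 12 libraries. The defining genes C1qa, C1qb, C1qc and Trem2 had no read in any mSOD1 library. In NTg replicate 6, C1qa stood at 6.6 CPM and C1qb at 8.96 CPM, and Trem2 had no read there either. The microglial gene Aif1 stayed at or below 0.508 CPM in mSOD1 libraries and 0.561 CPM in NTg libraries. Oligodendrocyte markers summed to 99.2 to 118 CPM in mSOD1 libraries and 108 to 113 CPM in NTg replicates 1 to 5, against 312 CPM in NTg replicate 6. Interferon-induced effectors summed to 476 to 610 CPM in mSOD1 libraries and to 388 to 425 CPM in NTg replicates 1 to 5, and NTg replicate 6 reached 584 CPM. Results of mSOD1 minus NTg medium on day 1 are therefore given with and without that library, and the part of those cells in the results was not tested.

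**Figure D1:**
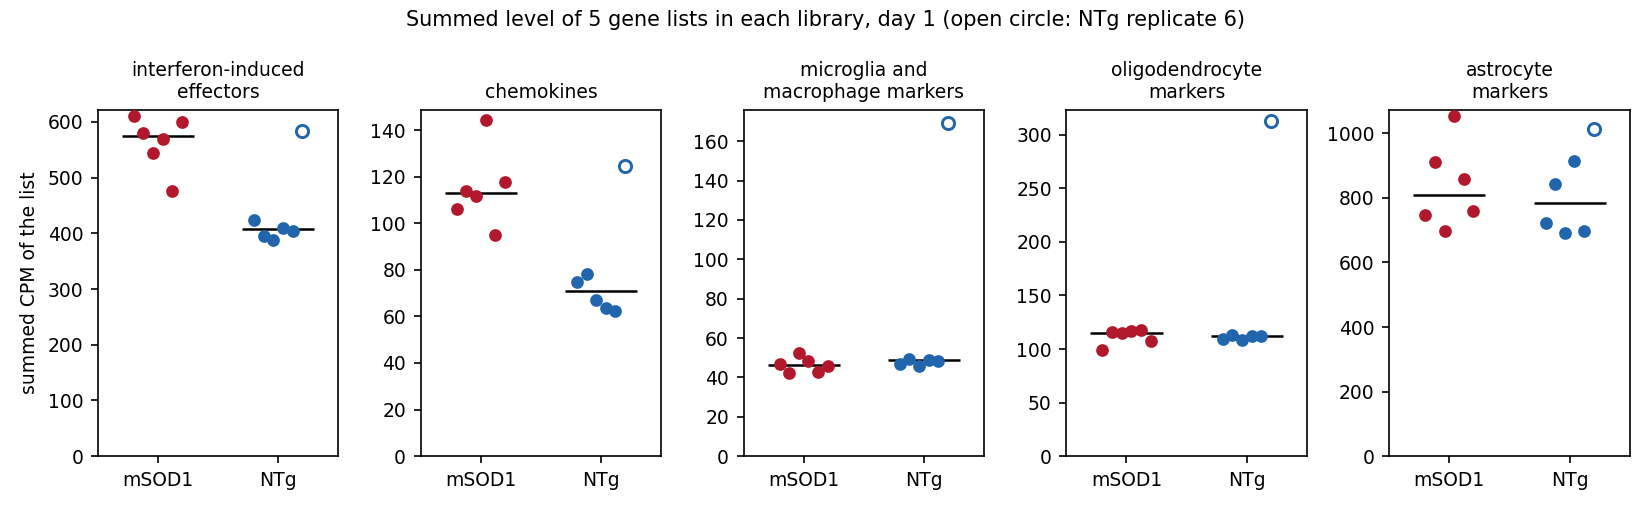
Summed level in CPM (vertical axes from 0) of 5 gene lists in each day 1 library, mSOD1 left of NTg; bars are medians and the open circle is NTg replicate 6. Interferon-induced effectors and chemokines are higher in all 6 mSOD1 libraries than in NTg replicates 1 to 5, and only in NTg replicate 6 do microglial (170 CPM) and oligodendrocyte (312 CPM) sums leave the range of the other 11 libraries.

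In mSOD1 medium 62 genes rose, 0.408% of the 15207 tested, and 2 fell, 0.0132% (edgeR quasi-likelihood test, adjusted p under 0.05 by Benjamini-Hochberg). The median log2 difference over all genes tested was -0.0028. Among the rising genes, 35 rose more than 2-fold and 13 more than 4-fold, 47 were higher in 6 of 6 same-numbered pairs and 15 in 5 of 6. The 2 groups did not overlap for 18 of the rising genes, where 0.263% of all genes tested were higher without overlap. Of the 62, 33 were on the 2 lists of interferon signalling and interferon-induced genes, and 12 were on no list. Without NTg replicate 6, 78 genes rose (0.511% of 15278) and 5 fell (0.0327%), among them all 64, and the log2 difference was larger for 61 of the 62 rising genes. That library was the highest NTg library for 51 of the 62. With experiment as a block within each day, 131 genes rose (0.861%) and 58 fell (0.381%), all 64 among them. In a fit of the 12 libraries alone 35 of the 64 passed, and 44 did in that fit with the experiment block.

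**Figure D2:**
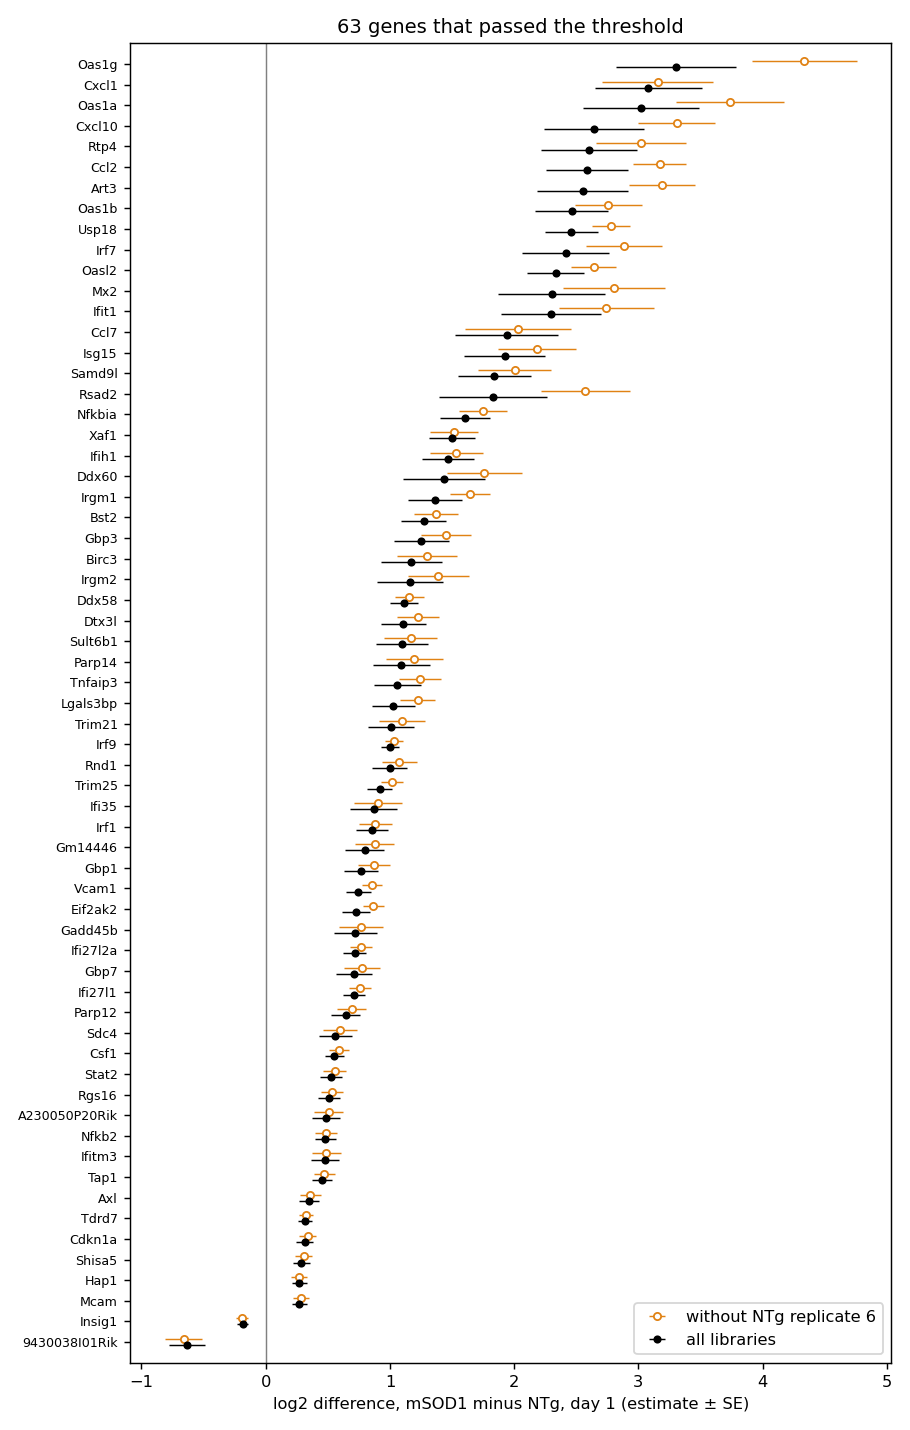
Log2 difference of mSOD1 minus NTg medium on day 1 (horizontal axis, estimate ± SE) for 63 genes that passed the threshold, with all libraries (black) and without NTg replicate 6 (open orange). Oas1g moves the most, at 4.33 without that library and 3.30 with it, while Irf9 lies at 1.03 without it and 1.00 with it.

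Genes of the interferon signal itself rose. Irf9 (gene 16391), the DNA-binding part of ISGF3, lay at 36.5, 39.8 and 47.5 CPM in mSOD1 libraries and at 17.7, 20.3 and 24 CPM in NTg libraries. Every mSOD1 library stood above every NTg library, and the log2 difference was 1.00 ± 0.07 (adjusted p = 2.67e-12, higher in 6 of 6 pairs). Stat2 (20847), another part of ISGF3, rose by 0.53 ± 0.09 (0.000269, 5 of 6). Irf7 (54123), which widens the interferon response, lay at 2.43, 4.18 and 5.71 CPM in mSOD1 libraries, against 0.306, 0.638 and 3.54 CPM in NTg libraries (2.41 ± 0.35, 2.42e-05, 6 of 6). Only NTg replicate 6 reached into the mSOD1 range of Irf7. Irf1 (16362), a factor that interferon gamma and NF-kB induce, lay at 15.7, 22.6 and 29.8 CPM in mSOD1 libraries, against 8.3, 13.4 and 14.6 CPM in NTg libraries, with no overlap (0.85 ± 0.13, 5.74e-05, 6 of 6). Usp18 (24110), a protease that removes ISG15 from proteins and dampens the receptor, had the largest log2 difference of the 5 genes named here, at 11.5, 17.3 and 20.6 CPM in mSOD1 libraries, against 1.48, 2.49 and 10.1 CPM in NTg libraries. Again no library overlapped, and the difference was 2.46 ± 0.21 (4.32e-10, 6 of 6).

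No receptor gene of the pathway passed. Of 19 tested genes of interferon receptors, ISGF3 and interferon regulatory factors, 6 rose and 13 did not pass, and the list's median log2 difference was 0.04. Ifnar1, a chain of the type I receptor, lay at 107 to 118 CPM in mSOD1 medium and 105 to 110 CPM in NTg medium (0.08 ± 0.04, adjusted p = 0.682), and Ifnar2, its partner chain, differed by -0.14 ± 0.07 (0.77). Ifngr1 and Ifngr2, the interferon gamma receptor, differed by -0.01 ± 0.09 and 0.12 ± 0.09, and the negative regulator Socs1 by -0.09 ± 0.20. None of these 5 passed. The interferons themselves were not seen: all 12 interferon genes looked up, Ifnb1 and Ifng among them, had no read in any mSOD1 library, and 10 had none in any NTg library. Over the summed reads of a group, a count of 0 allows a level of up to 0.0381 CPM in mSOD1 medium and 0.0352 CPM in NTg medium, for counting error only.

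Antiviral effectors were the list with the most rising genes. Of 62 tested interferon-induced effectors, 27 rose, none fell and 35 did not pass (0.408% of all genes tested rose), and the median log2 difference of the list was 0.71. Oasl2 (23962), of the oligoadenylate synthetase family that senses double-stranded RNA, lay at 12.5, 23.4 and 24 CPM in mSOD1 libraries, against 3.03, 3.49 and 13 CPM in NTg libraries (2.34 ± 0.23, adjusted p = 1.59e-08, 6 of 6). Of the NTg libraries replicate 6 lay inside the mSOD1 range, above mSOD1 replicate 5, and the others reached at most 3.58 CPM. Its relatives Oas1b, Oas1g and Oas1a rose by 2.46 ± 0.29 (7.5e-07), 3.30 ± 0.48 (2.78e-05) and 3.02 ± 0.47 (8.5e-05). These were low genes, with medians of 4.78, 3.2 and 3.1 CPM in mSOD1 medium and 0.685, 0.251 and 0.217 CPM in NTg medium, and reads of such close relatives may be shared. Oas1b is listed by RefSeq as a transcribed pseudogene. Rtp4 (67775), an interferon-induced chaperone of membrane receptors, lay at 4.03 to 6.44 CPM in mSOD1 medium and 0.137 to 3.77 CPM in NTg medium without overlap (2.60 ± 0.39, 4.65e-05, 6 of 6). Its gene overlaps Masp1. Isg15, the ubiquitin-like modifier that Usp18 removes, rose by 1.92 ± 0.33 (0.000366, 6 of 6).

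Several of the other effectors act on viral RNA, membranes or cell survival. Bst2 (69550), which tethers virus particles at the membrane, lay at 3.56, 4.67 and 5.47 CPM in mSOD1 libraries, against 1.32, 1.91 and 3.54 CPM in NTg libraries, and even the lowest mSOD1 library stood, just, above the highest NTg library (1.27 ± 0.18, adjusted p = 1.74e-05, 6 of 6). Xaf1, which binds the apoptosis inhibitor XIAP, lay at 3.95 to 6.47 CPM in mSOD1 libraries, against 1.2 to 2.6 CPM in NTg libraries (1.22e-06, 6 of 6), also without overlap. Samd9l, an antiviral factor, rose by 1.84 ± 0.30 (0.000171, 6 of 6). Eif2ak2, the kinase PKR that stops translation, lay at 34 to 57.9 CPM in mSOD1 medium, against 25.1 to 31.2 CPM in NTg replicates 1 to 5 and 52.6 CPM in NTg replicate 6 (0.73 ± 0.11, 8.5e-05, 6 of 6). The guanylate-binding and immunity-related GTPases, which attack vacuoles of intracellular microbes, were represented by Irgm1 (1.36 ± 0.22, 0.000125), Gbp3 (1.25 ± 0.22, 0.000669), Irgm2 (1.16 ± 0.27, 0.0288) and Gbp7 (0.71 ± 0.14, 0.00538), each higher in 5 of 6 pairs. Irgm1 and Irgm2 were higher in NTg replicate 6, at 10.6 and 6.6 CPM, than in any mSOD1 library. The ADP-ribosylation factors Parp14 and Parp12 rose by 1.09 ± 0.23 (0.00748) and 0.64 ± 0.12 (0.000831), and Dtx3l, a ubiquitin ligase, by 1.11 ± 0.18 (0.000132), while its overlapping partner Parp9 missed the threshold (0.71, 0.0528) unless NTg replicate 6 was left out (0.75, 0.039). Ifit1, Mx2 and Rsad2, genes of the antiviral response, rose by 2.30 ± 0.40 (0.00063), 2.30 ± 0.43 (0.00169) and 1.83 ± 0.43 (0.0355), yet none exceeded 3.33 CPM in an mSOD1 library. RefSeq lists mouse Mx2 as a transcribed pseudogene. Rsad2, like Irgm1 and Irgm2, was higher in NTg replicate 6 (3.77 CPM) than in any mSOD1 library, and NTg replicates 1 to 5 reached at most 0.547 CPM. In a fit of the 12 libraries alone Eif2ak2, Irgm1, Irgm2, Gbp3, Gbp7, Parp14 and Rsad2 did not pass (adjusted p = 0.269, 0.123, 0.169, 0.101, 0.0926, 0.101 and 0.528), and Ifit1, Oas1g and Stat2 did not pass in that fit with the block (0.0715, 0.0933 and 0.0715). Irgm1, Irgm2 and Rsad2 did not pass with the block there either (0.135, 0.165 and 0.165). Rsad2 lost its call in 12 of 24 alternative settings, among them 9 of those that leave out a single library.

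The remaining members of that list that rose were Ifi27l2a and Ifi27l1 (0.72 ± 0.09 and 0.71 ± 0.09), which overlap on the chromosome and had near-identical levels in each library, so they may be a single signal. Lgals3bp, a secreted glycoprotein, rose by 1.03 ± 0.17 (adjusted p = 0.000312), Trim21, a cytosolic antibody receptor, by 1.01 ± 0.19 (0.0012), Ddx60, a helicase, by 1.43 ± 0.33 (0.0277), Ifi35 by 0.87 ± 0.19 (0.0133) and the membrane protein Ifitm3 by 0.48 ± 0.11 (0.0288). With the 12 libraries alone Ddx60, Ifi35 and Ifitm3 did not pass (adjusted p = 0.4, 0.307 and 0.0619). Ddx60 did not pass in that fit with the block either (0.135). Other genes known for the same response did not pass. Ifit2 stood at 3.51 CPM in mSOD1 medium and 4 CPM in NTg medium (medians), with a log2 difference of -0.14 ± 0.16. Ifit3, Ifi44 and Adar, an RNA editing enzyme, differed by 0.37 ± 0.49, 0.35 ± 0.27 and 0.01 ± 0.05.

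Both main cytosolic sensors of viral RNA rose. Of 27 tested sensors and adaptors 3 rose and none fell, with a list median of 0.08. Ddx58 (230073), the sensor RIG-I, lay at 14.1, 15.9 and 17.6 CPM in mSOD1 libraries and at 6, 6.85 and 9.67 CPM in NTg libraries (1.11 ± 0.11, adjusted p = 1.59e-08, 6 of 6). Ifih1 (71586), the sensor MDA5, lay at 2.66, 4.73 and 5.86 CPM in mSOD1 libraries, against 0.401, 1.87 and 2.59 CPM in NTg libraries (1.47 ± 0.21, 1.8e-05, 6 of 6). Neither gene had an mSOD1 library within the NTg range. Trim25 (217069), the ligase that activates RIG-I, lay at 38.8, 57.8 and 62.2 CPM in mSOD1 libraries, against 25.6, 27.5 and 44.8 CPM in NTg libraries, where mSOD1 replicate 5 fell below NTg replicate 6 (0.92 ± 0.10, 1.57e-07, 6 of 6). The adaptor Mavs (-0.00 ± 0.13), the third receptor of this kind Dhx58 (-0.53 ± 0.28) and the endosomal sensor Tlr3 (0.33 ± 0.20) did not pass.

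The promoters of these genes were read for the letters of the elements that ISGF3 and NF-kB bind. The windows come from RefSeq on build GRCm38.p6 and run from 250 bases before to 50 bases after a start, 1 a gene. A window was at hand for 49 of the 62 rising genes. The ISRE-type letters (GAAA, any 2 bases, GAAA), searched on both strands, were in 20 of the 49 (40.8%), in 2.92% of the windows of 11737 tested genes and in 3.49% of all 27025 windows. Among interferon-list genes with a window, 15 of 25 that rose held them (60%), as did 14 of 41 that did not pass (34.1%). The kappaB-type letters (GGGA, any 2 bases, TTCC, both strands) were in 5 of the 49 (10.2%), in 1.26% of windows of tested genes and in 1.43% of all: Nfkbia, Cxcl1, Csf1, Cxcl10 and Ifitm3. A match is a description of these letters, not a binding site or a cause. Shown are windows of Ddx58, Bst2 and Ifih1, which hold ISRE-type letters, of Nfkbia, which holds kappaB-type letters, and of Cxcl10, which holds both kinds. Capitals mark the matched letters, on the gene's own strand: Ddx58 chr4:40239776-40240075 minus, Bst2 chr8:71537423-71537722 minus, Ifih1 chr2:62646206-62646505 minus, Cxcl10 chr5:92348840-92349139 minus, Nfkbia chr12:55492598-55492897 minus.
Ddx58: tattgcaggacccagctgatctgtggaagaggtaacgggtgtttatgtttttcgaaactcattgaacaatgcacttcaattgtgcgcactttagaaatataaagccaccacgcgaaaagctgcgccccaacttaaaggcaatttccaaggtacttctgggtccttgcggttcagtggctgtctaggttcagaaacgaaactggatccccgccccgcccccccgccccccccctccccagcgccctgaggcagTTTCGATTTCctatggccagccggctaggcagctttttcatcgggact
Bst2: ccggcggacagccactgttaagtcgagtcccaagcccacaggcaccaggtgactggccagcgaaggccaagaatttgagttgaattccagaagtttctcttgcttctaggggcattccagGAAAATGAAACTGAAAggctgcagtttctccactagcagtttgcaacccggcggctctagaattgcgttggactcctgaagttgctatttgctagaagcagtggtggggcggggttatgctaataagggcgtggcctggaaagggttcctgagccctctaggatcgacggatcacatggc
Ifih1: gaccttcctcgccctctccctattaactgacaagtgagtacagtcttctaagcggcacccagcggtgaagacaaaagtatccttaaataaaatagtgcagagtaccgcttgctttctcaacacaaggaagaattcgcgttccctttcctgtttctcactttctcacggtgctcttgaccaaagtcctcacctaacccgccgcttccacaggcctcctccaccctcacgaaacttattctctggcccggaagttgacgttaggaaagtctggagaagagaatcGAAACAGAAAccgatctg
Cxcl10: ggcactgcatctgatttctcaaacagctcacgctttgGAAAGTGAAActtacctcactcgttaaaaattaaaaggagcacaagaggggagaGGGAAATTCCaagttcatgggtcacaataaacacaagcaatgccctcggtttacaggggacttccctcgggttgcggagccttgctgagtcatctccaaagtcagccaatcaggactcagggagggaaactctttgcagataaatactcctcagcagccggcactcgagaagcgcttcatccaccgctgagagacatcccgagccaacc
Nfkbia: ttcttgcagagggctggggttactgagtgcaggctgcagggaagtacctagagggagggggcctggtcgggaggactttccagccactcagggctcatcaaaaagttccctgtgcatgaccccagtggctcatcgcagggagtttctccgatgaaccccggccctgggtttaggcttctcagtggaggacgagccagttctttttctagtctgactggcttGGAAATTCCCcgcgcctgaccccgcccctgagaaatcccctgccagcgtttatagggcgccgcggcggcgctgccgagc
In Bst2 the ISRE-type letters begin 130 and 124 bases before the start and overlap each other. In Cxcl10 the ISRE-type match begins 213 bases and the kappaB-type match 159 bases before the start without overlap, and in Nfkbia the kappaB-type match begins 29 bases before it. In Ddx58 and Ifih1 the matched letters begin after the start, within the 50 bases shown.

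**Figure D3:**
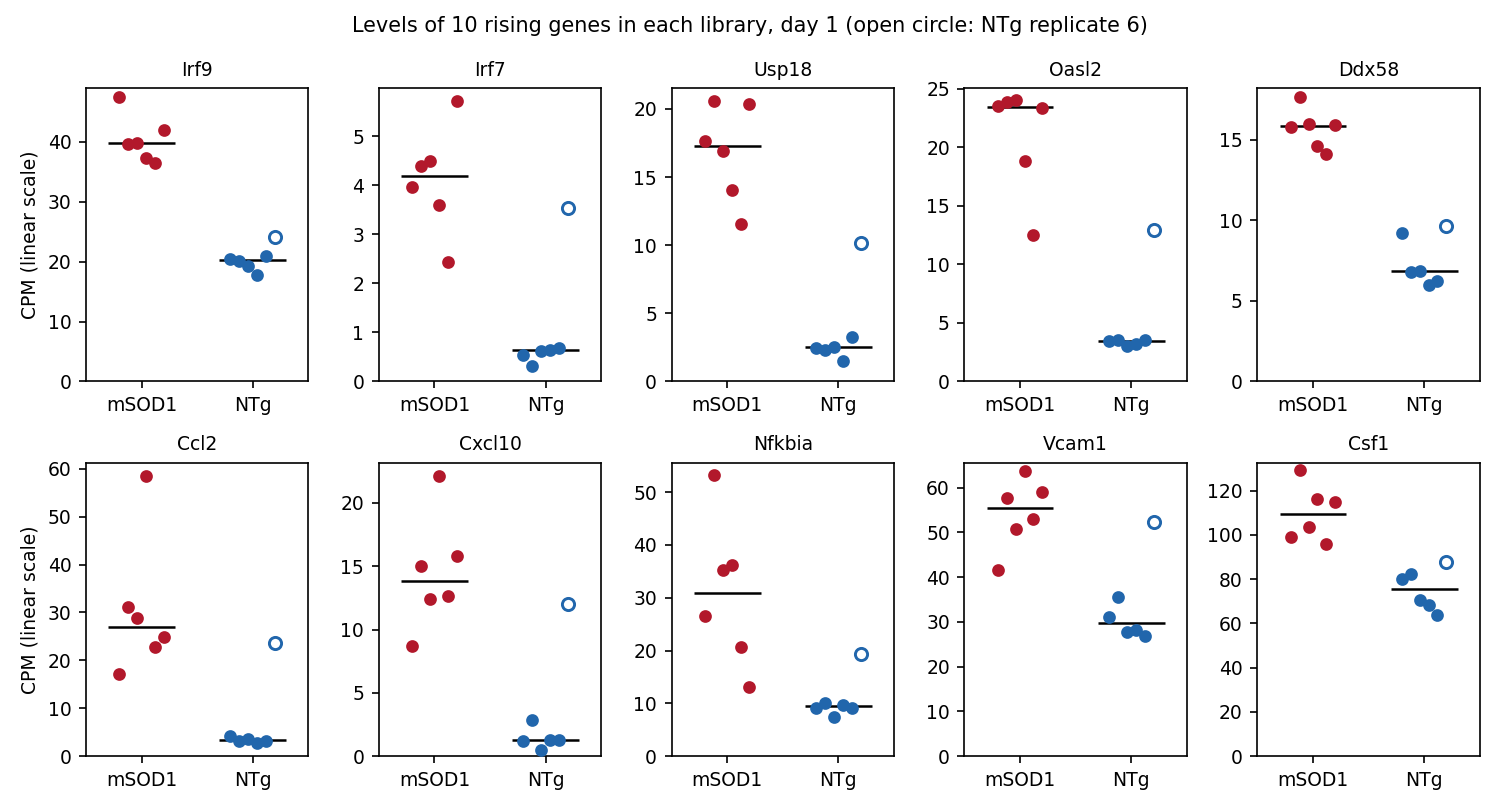
Level in CPM (linear vertical axes from 0) of 10 rising genes in each day 1 library, mSOD1 left of NTg; bars are medians and the open circle is NTg replicate 6. Irf9, Usp18, Ddx58 and Csf1 separate the groups in all 12 libraries, whereas for Irf7, Oasl2, Ccl2, Cxcl10, Nfkbia and Vcam1 NTg replicate 6 lies among the mSOD1 libraries.

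The chemokines that rose had low levels in NTg medium. Of 10 tested chemokines 4 rose and none fell, with a list median of 0.21, and 25 more were too low to test. Ccl2 (20296), which draws monocytes, lay at 17.1, 26.9 and 58.5 CPM in mSOD1 libraries, against 2.77, 3.33 and 23.6 CPM in NTg libraries (2.58 ± 0.33, adjusted p = 7.55e-06, 6 of 6). NTg replicates 1 to 5 reached at most 4.17 CPM. Cxcl10 (15945), which draws T cells and whose promoter is shown above, lay at 8.71, 13.8 and 22.1 CPM in mSOD1 libraries, against 0.515, 1.27 and 12 CPM in NTg libraries (2.64 ± 0.40, 8.76e-05, 6 of 6). The highest value of either gene belonged to mSOD1 replicate 4. Art3 overlaps Cxcl10 and had a similar level in most libraries, though in NTg replicate 3 it lay at 1.09 CPM and Cxcl10 at 0.515 CPM. Its difference was 2.55 ± 0.36, and its rise cannot be told apart from that of Cxcl10. Cxcl1 (14825), which draws neutrophils, lay at 1.12, 2.3 and 3.9 CPM in mSOD1 libraries, against 0, 0.289 and 0.472 CPM in NTg libraries with no overlap (3.08 ± 0.43, 1.37e-05, 6 of 6), and Ccl7, another attractant of monocytes, rose by 1.94 ± 0.41 (0.0107, 6 of 6). Cx3cl1, the neuronal ligand of microglial receptors, and Cxcl12 differed by 0.24 ± 0.08 (0.351) and 0.01 ± 0.11. In a fit of the 12 libraries alone Ccl2, Art3 and Cxcl10 did not pass without the block (adjusted p = 0.157, 0.157 and 0.172) or with it (0.379, 0.326 and 0.36). Ccl7 was too low to be tested there. Without NTg replicate 6 Ccl2 and Cxcl10 passed in such a fit without the block. With all other libraries of the study in the fit, their differences were then 3.17 (4.82e-13) and 3.31 (3.09e-09).

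In the NF-kB system 3 feedback genes and 1 subunit gene rose. Of 21 tested inhibitors and feedback genes 3 rose (list median 0.04). Nfkbia (18035), the inhibitor that NF-kB itself induces, lay at 13, 30.9 and 53.3 CPM in mSOD1 libraries and at 7.33, 9.47 and 19.3 CPM in NTg libraries (1.61 ± 0.20, adjusted p = 2.88e-06, 5 of 6). Among mSOD1 libraries, replicate 2 was the highest and replicate 6 the lowest, and that library lay below NTg replicate 6. Tnfaip3 (21929), the enzyme A20 that ends the signal, had its highest and lowest mSOD1 values in the same libraries, with 16.1, 26.8 and 42.8 CPM in mSOD1 libraries, against 10, 11.9 and 27.6 CPM in NTg libraries (1.06 ± 0.19, 0.00127, 5 of 6). Birc3, a ubiquitin ligase of the TNF receptor complex, rose by 1.17 ± 0.24 (0.0077, 5 of 6). With the 12 libraries alone Nfkbia, Tnfaip3 and Birc3 had adjusted p = 0.209, 0.69 and 0.0548, and with the 11 libraries left without NTg replicate 6 those of Nfkbia and Tnfaip3 were 0.117 and 0.151. With the block in the fit of the 12 libraries, Nfkbia, Tnfaip3 and Birc3 did not pass either (0.466, 0.621 and 0.0635). Of 13 subunits and kinases, Nfkb2, the precursor of p52, rose by 0.48 ± 0.09 (0.000669, 6 of 6, no overlap), and Relb, its dimer partner, passed with the experiment block (0.58, 0.00661) and without NTg replicate 6 (0.66, 0.0491) but not in the fit of all libraries without a block (0.61, 0.1). Rela and Nfkb1, the classical pair, differed by 0.08 ± 0.05 and 0.09 ± 0.07.

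Beside them 2 of 10 tested adhesion molecules rose (list median 0.11), and 1 cytokine. Vcam1 (22329), which binds leukocyte integrins, lay at 41.6, 55.3 and 63.7 CPM in mSOD1 libraries and 26.9, 29.7 and 52.3 CPM in NTg libraries (0.75 ± 0.10, adjusted p = 1.37e-05, 6 of 6; 0.0548 with the 12 libraries alone). The highest of the other NTg libraries was at 35.7 CPM. Mcam rose by 0.27 ± 0.06 (0.0288, 6 of 6; 0.0972 with the 12 libraries alone), and Icam1 passed without NTg replicate 6 (1.41, 0.000185) and with the block (1.04, 0.0099) but not with all libraries and no block (1.11, 0.0528). Of 13 tested inflammatory cytokines 1 rose (list median 0.21): Csf1 (12977), the growth factor of microglia and macrophages, at 95.7, 109 and 129 CPM in mSOD1 libraries, against 63.8, 75.3 and 87.7 CPM in NTg libraries with no overlap (0.55 ± 0.08, 1.8e-05, 6 of 6). Tnf, Il6 and Il1b were too low to test, at no more than 0.29, 0.076 and 0 CPM in mSOD1 libraries, while NTg replicate 6 had Il1b at 3.77 CPM. None of 26 cytokine receptors passed. With the block Fas, a death receptor, rose (0.56, 2.14e-05, higher in 6 of 6) and Osmr, the oncostatin M receptor, fell (-0.30, 0.0019, lower in 6 of 6), at adjusted p = 0.0893 and 0.0528 without it. Osmr went the opposite way on day 3 (0.53 ± 0.07, 2.72e-06), and the difference between days passed (-0.82, 2.72e-06).

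In antigen presentation, calls of single genes turned on NTg replicate 6. Of 28 tested genes of MHC class I presentation 1 rose, the peptide transporter Tap1 (0.46 ± 0.08, adjusted p = 0.000669, 6 of 6; 0.062 with the 12 libraries alone), the list median was 0.27, and 25 of the 28 differences were above 0. B2m, the light chain of every class I molecule, lay at 24.1, 29.2 and 34.3 CPM in mSOD1 libraries and 17.2, 18.8 and 50.2 CPM in NTg libraries, the last value being NTg replicate 6. Its difference was 0.39 ± 0.16 (0.606) with that library and 0.61 (0.000678) without it. H2-D1, a class I heavy chain with close relatives, went likewise, 0.29 ± 0.16 (0.782) with and 0.51 (0.00828) without. Patl2 had nearly the level of B2m in each library, at 24.5 to 34.7 CPM in mSOD1 medium and 17.8 to 50.2 CPM in NTg medium. Reads of B2m and Patl2 may therefore be shared. The immunoproteasome subunit Psmb8 differed by 0.71 ± 0.26 (0.532) and did not pass either way.

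In the lists of p53 targets and immediate-early genes a single gene each passed. Cdkn1a, the cell cycle inhibitor p21, was the only 1 of 28 tested p53 targets to rise, at 92.5, 103 and 109 CPM in mSOD1 libraries against 69.7, 83.8 and 91.5 CPM in NTg libraries, just without overlap (0.31 ± 0.07, adjusted p = 0.0125, 6 of 6). The list median was 0.11. Among 28 immediate-early genes, which report neuronal activity, Gadd45b rose (0.72 ± 0.17, 0.0409, 5 of 6), and Npas4 and Fos, lower in 6 of 6 pairs, passed only with the block (-0.52, 0.0148 and -0.26, 0.0394). Ier3, on the same list, also passed only with the block but rose (0.43, 0.0344, higher in 6 of 6). Rising genes on no list included Rnd1 (223881), a small GTPase that reshapes the cytoskeleton, at 11.6, 14.5 and 23.3 CPM in mSOD1 libraries, against 5.9, 7.54 and 12 CPM in NTg libraries (1.00 ± 0.14, 1.74e-05, 6 of 6). They also included Sult6b1 of the sulfotransferases (1.10 ± 0.21), Gm14446, which overlaps Ifit1 (0.79 ± 0.16), the guanylate-binding gene Gbp1 (0.77 ± 0.14), Sdc4, a cell surface proteoglycan (0.56 ± 0.13), and Rgs16, a brake on G-protein signals (0.51 ± 0.09). A230050P20Rik, Axl, a receptor tyrosine kinase, Tdrd7, Shisa5 and Hap1, the huntingtin-associated protein, rose by 0.48, 0.35, 0.32, 0.29 and 0.27. With the 12 libraries alone Gadd45b, Gm14446, Gbp1, Sdc4, A230050P20Rik, Axl and Shisa5 did not pass (adjusted p = 0.244, 0.169, 0.062, 0.508, 0.244, 0.0933 and 0.145). With the block in that fit Gadd45b, Gm14446, Sdc4 and A230050P20Rik did not pass either (0.0581, 0.093, 0.0702 and 0.193). The groups did not overlap for Hap1, at 152 to 179 CPM in mSOD1 medium and 131 to 151 CPM in NTg medium.

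Of the 2 genes that fell, Insig1 had a small difference and 9430038I01Rik a larger one at a low level. Insig1, which holds back the lipid regulator SREBP, lay at 82.1, 85.2 and 104 CPM in mSOD1 libraries and 97, 101 and 105 CPM in NTg libraries (-0.19 ± 0.05, adjusted p = 0.0485, lower in 5 of 6). It was 1 of 30 tested genes of cholesterol synthesis and SREBP control, whose median was -0.08, with 22 below 0. Insig1 did not pass with the 12 libraries alone, without the block (0.556) or with it (0.266). Srebf2, the regulator itself, passed only with the block (-0.14, 0.0291). 9430038I01Rik, for which no function is given here, lay at 2.11 to 4.57 CPM in mSOD1 libraries, against 4.48 to 6.53 CPM in NTg libraries (-0.63 ± 0.15, 0.0309, lower in 6 of 6). It did not pass with the 12 libraries alone either, without the block (0.367) or with it (0.177).

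The experiment block added 69 rising and 56 falling genes, most of them with small differences (median log2 0.29 and -0.22). Among the added rising genes were more members of the interferon response. Ifi202b, of a family that binds DNA, rose by 1.46 (adjusted p = 0.00171), Oas1c by 0.82 (0.0381), Gbp9 by 0.77 (0.0027), Trim12c by 0.76 (0.025) and Parp9 by 0.72 (0.00123), each in 6 of 6 pairs. Sstr1, a somatostatin receptor, and 1700007K13Rik rose by 0.66 (0.0329) and 0.62 (0.0123), also in 6 of 6. Nlrp4e rose by 0.74 (0.016), with levels from 4.07 to 21 CPM in mSOD1 libraries and 2.03 to 25.2 CPM in NTg libraries that overlapped over most of their range. Added falling genes included Pdgfrb, a receptor of pericytes and fibroblasts (-0.74, 0.0478), Npas4, an activity-induced transcription factor, Smpdl3a, a phosphodiesterase (-0.49, 0.00772), Neil3, a DNA repair enzyme (-0.46, 0.0341), and Rasgrf1, an exchange factor for Ras (-0.43, 0.0288), each lower in 6 of 6 pairs. Gpr50 and Stac2 were lower in 6 of 6 (-0.42 and -0.41), and Ttpa, a vitamin E carrier, Rasl11b and Gm13138 in 5 of 6 (-0.80, -0.47 and -0.47). Of the mesenchyme and fibroblast markers, 3 rose with the block and 1, Pdgfrb, fell. Those that rose were Acta2 (0.30, 0.00156), Tagln (0.23, 0.048) and Col5a2 (0.20, 0.00763). With all libraries and no block none of the genes named in these sentences passed, and without NTg replicate 6 Oas1c and Parp9 passed in that fit (0.92, 0.0169 and 0.75, 0.039). Ifi202b also passed on day 3 (1.85, 0.000234).

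**Figure D4:**
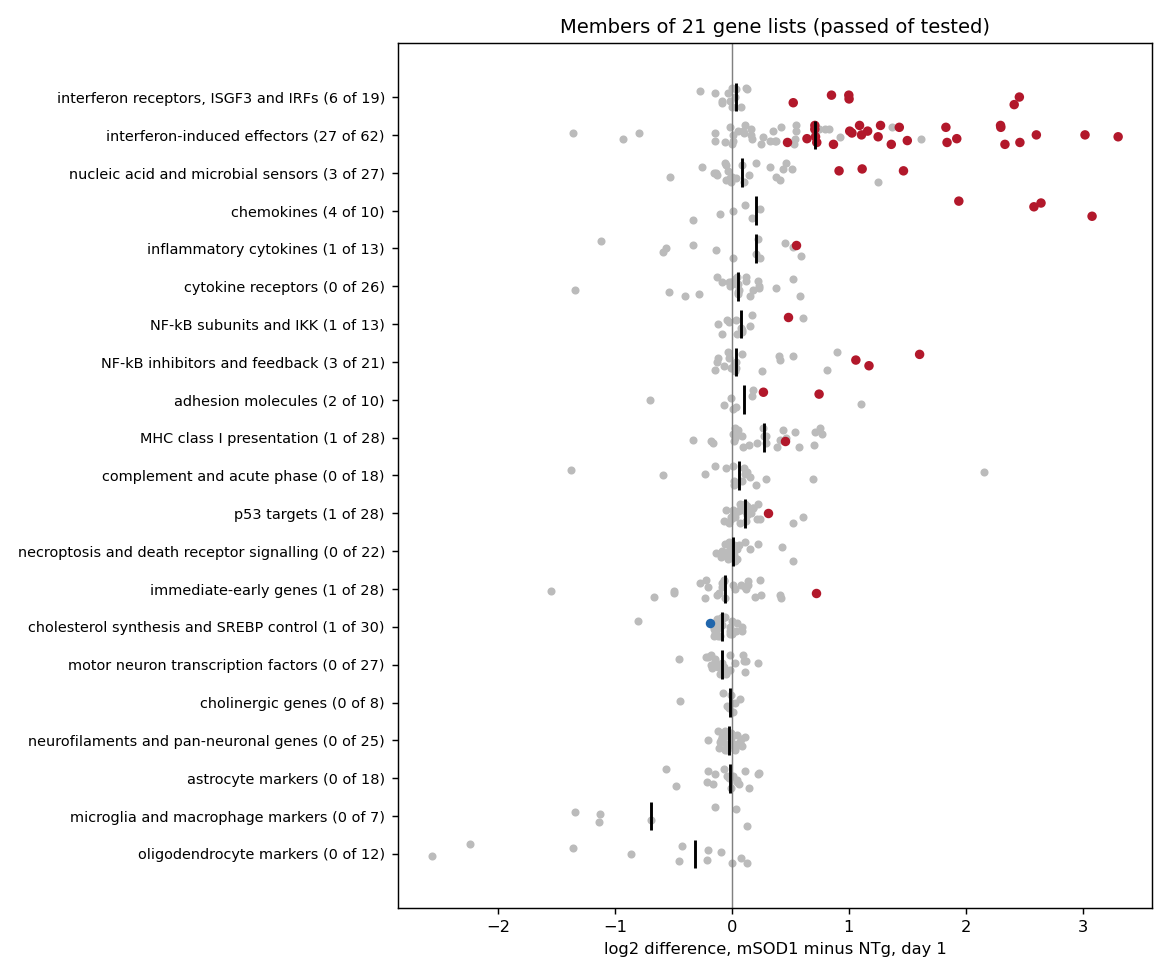
Log2 difference of mSOD1 minus NTg medium on day 1 (horizontal axis) for the tested members of 21 gene lists; red points rose, blue fell, grey did not pass, and the black bar is the list's median. Most red points sit in the interferon, sensor, chemokine, NF-kB and adhesion lists, and motor neuron, cholinergic and pan-neuronal lists have 0 members past the threshold.

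Lists that describe the motor neuron itself, familial ALS genes and cell death genes held no gene that passed in the fit without a block. None of 27 tested motor neuron transcription factors (list median -0.08), 8 cholinergic genes (-0.01), 25 neurofilament and pan-neuronal genes (-0.02), 31 genes mutated in familial ALS (-0.03), 22 genes of necroptosis and death receptor signalling (0.01) and 18 of the BCL2 family (0.02) passed. Of the motor neuron transcription factors 21 differences were below 0 and 6 above, and of the familial ALS genes 23 and 8. With the block Fas, on the necroptosis list, rose (0.56, 2.14e-05). Of the 45 lists with a tested member, 32 had no call in the fit without a block. A gene that did not pass is not shown to be alike in both media. In simulated counts with the depth of these libraries and 1 spread estimate per gene, 48 of 50 genes raised 2-fold and 50 of 50 raised 4-fold were called by the same test. The changed genes all had an average log2 CPM above 1. Smaller changes were not simulated, and no library was made to stand apart as NTg replicate 6 did. The simulation therefore cannot say how often lower genes or smaller differences were missed.

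On day 3, in separate libraries, most of these genes were near their level in NTg medium. In mSOD1 medium 2.23% of all genes tested rose on that day and 0.684% fell. Of the 62 genes, 6 rose then too, namely Irf9, Oas1b, Ifi27l2a, Ifi27l1, Tdrd7 and Hap1, and 55 had a day 3 log2 difference within 0.5 of 0. Beyond 0.5 lay Ifi27l2a, Ifi27l1, Oas1b, Oas1a (1.6 ± 0.63), Oas1g (1.41 ± 0.67), Rtp4 (1.06 ± 0.39) and Oasl2 (0.62 ± 0.23). Of these, Oas1a, Oas1g, Rtp4 and Oasl2 did not pass on day 3. Usp18 differed by 2.46 ± 0.21 on day 1 and -0.00 ± 0.23 on day 3, Ccl2 by 2.58 ± 0.33 and 0.12 ± 0.33, and Nfkbia by 1.61 ± 0.20 and 0.07 ± 0.20. The difference between days itself passed for these 3 (adjusted p = 1.09e-05, 0.00952 and 0.00636), and for 18 of the 62 in all, where 0.145% of genes tested had a higher and 0.0855% a lower difference on day 1. The day 1 libraries that chose the 62 genes also enter that test, NTg replicate 6 among them. Day differences of single genes without that library are not given here. For Cxcl10 (2.64 on day 1 and 0.12 on day 3, 0.062) and Cxcl1 (3.08 and 0.03, 0.0679) the difference between days did not pass. Ifi27l2a and Ifi27l1 went the other way, with 0.89 on day 3 and 0.72 and 0.71 on day 1, and that difference did not pass either (0.551 and 0.525).

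**Figure D5:**
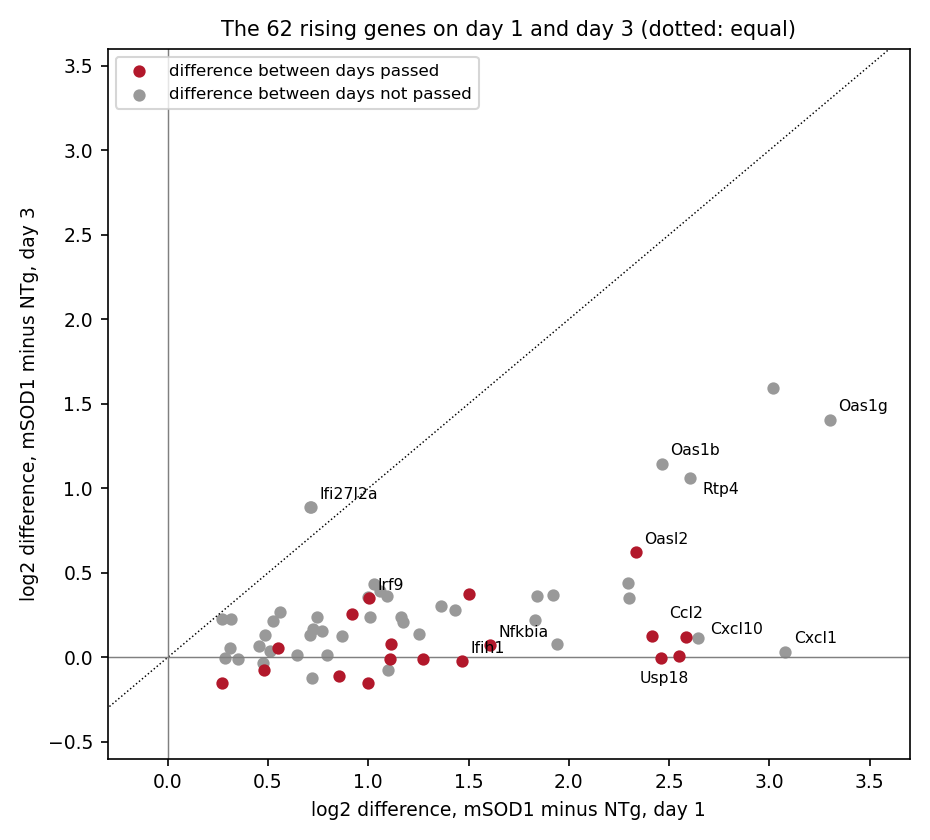
Log2 difference of mSOD1 minus NTg medium on day 1 (horizontal axis) and day 3 (vertical axis) for the 62 rising genes; red points mark an adjusted p under 0.05 for the difference between days, and the dotted line marks equal differences. Most points lie near 0 on day 3, with Usp18 at -0.00 and Ccl2 at 0.12, while Ifi27l2a at 0.89 lies above the line.

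Medium of astrocytes that over-express wtSOD1 asks what extra SOD1 without the mutation does. On day 1, 82 genes were higher in mSOD1 than in wtSOD1 medium (0.539% of those tested) and 71 lower (0.467%). This comparison uses the same mSOD1 libraries, and wtSOD1 against NTg medium uses the same NTg libraries, so values are only set side by side. The values of wtSOD1 minus NTg medium all include NTg replicate 6, the highest NTg library for 51 of the 62 rising genes. Values without it are not given for this comparison. The wtSOD1 replicate 4 held 88931151 reads, against 10454900 to 20690180 in the other wtSOD1 libraries of day 1. Without it and NTg replicate 6, 95 genes differed between the SOD1 media in place of 153, and 174 without NTg replicate 6 alone. Ccl2 was higher in mSOD1 than in wtSOD1 medium by 3.58 (adjusted p = 4.14e-08), and between wtSOD1 and NTg medium it did not pass (0.694). For Usp18 the log2 differences of mSOD1 minus wtSOD1 and of wtSOD1 minus NTg were 2.14 (6.48e-09) and 0.32 (0.985), for Nfkbia 1.76 (3.74e-07) and -0.16 (1), and for Vcam1 0.79 (2.96e-06) and -0.04 (1). Irf9 differed in both, by 0.61 (3.73e-07) between mSOD1 and wtSOD1 medium and by 0.39 (0.023) between wtSOD1 and NTg medium. Ifih1 did not differ between the SOD1 media beyond the threshold (0.63, 0.0978), with wtSOD1 at 0.83 over NTg (0.217). Insig1 lay at 0.04 (0.805) between the SOD1 media and differed by -0.23 (0.0437) between wtSOD1 and NTg medium.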

How the data were processed

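RNA of 12 day 1 libraries was compared, 6 in mSOD1 medium and 6 in NTg medium, and all 36 libraries of 6 groups entered the fit. The authors deposited whole-number read counts per gene, headed Reads per the file headers. TopHat 1.3.3 and DESeq are named as tools in the submitters' processing notes, with mm9 as genome build. How reads were counted, with which annotation and whether by strand, was not given. Results for overlapping, antisense and near-identical genes are therefore uncertain. Of the 64 called genes 12 overlap another listed gene. Among them, and not named as such above, are Eif2ak2 (with Gm6548), Stat2 (Apof), Nfkb2 (Psd) and A230050P20Rik (Angptl6). Genes that were not called were not all looked up. A second deposited column of transformed values was not used. 1798 genes had no read in any library, and 7 genes without a symbol held 0.000516% of the reads.

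The test on counts was the quasi-likelihood one of edgeR 4.0.16 (R 4.3.3, TMM scaling, filterByExpr by group, robust quasi-likelihood fit of 6 group means, 30 residual degrees of freedom, no block). P-values were adjusted by Benjamini-Hochberg over the 15207 genes tested, two-sided, with a threshold of 0.05. Differences are log2 estimates ± SE. CPM were computed here on TMM-scaled totals. DESeq2 1.42.0 was an alternative, as were RLE scaling, other filters, replicate blocks, the 12 libraries alone and each library left out. The fit was tested on simulated data of 15148 genes, some of them with known 2-fold or 4-fold changes.

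The experiment numbers in the labels were taken as shared experiments that pair libraries. Deviations from group means of same-numbered mSOD1 and NTg libraries correlated at 0.0725 to 0.155 (mean 0.107, 3 of 6 above 0.1), against a mean of -0.0211 for other numbers. Because deviations are taken from the mean of the same 6 libraries, the mean for other numbers follows closely from that for same numbers. It is no separate baseline. Nothing in the labels says that replicates came from separate differentiations, so p-values measure a spread between libraries. The main fit estimates that spread from all 36 libraries in 6 groups, not from the 12 compared alone. With the spread of those 12 only, 35 of the 64 called genes passed.

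The 46 gene lists (1232 entries, 1228 matched) were written from general knowledge. The libraries compared and the lists were chosen with earlier results of these data known. Values were printed for up to 30 rising and 10 falling genes by fold, with an average log2 CPM (prior count 2) from 1 upward and 5 or more of 6 pairs in 1 direction, for genes called with the block, for list members by lowest p, and for fixed markers. Other genes were named after their values were seen. Overlaps of genes and promoter windows come from RefSeq tables on GRCm38.p6, matched on gene identifiers. Coordinates were not converted between builds. A gene that these rules select is not reported here, though it is part of the counts and sums.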

Additional observations from a re-analysis of the deposited data

Results flagged for a closer look

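A library was marked when, among the 6 of its group, its gap to the next one, as a share of the group's range, exceeded Dixon's 95% critical value on the log2(CPM + 0.5) scale. Chance marks about 1 in 20 groups. Of 63 genes that passed, 6 were marked in mSOD1 medium and 14 in NTg medium, and 17 of the marks in NTg medium, lists included, belong to replicate 6. In mSOD1 medium, replicate 5 was far below the others for Trim25 (38.8 CPM), Oas1b (2.81 CPM), Eif2ak2 (34 CPM), Irgm1 (6.46 CPM) and Stat2 (30.8 CPM), and replicate 3 for Mcam (62.7 CPM). In NTg medium, replicate 6 was far above the others for Oasl2 (13 CPM), Trim25 (44.8 CPM), Oas1b (2.83 CPM), Nfkbia (19.3 CPM) and Ccl2 (23.6 CPM). The same library stood out for Irf7 (3.54 CPM), Oas1g (2.83 CPM), Art3 (12.7 CPM), Eif2ak2 (52.6 CPM), Isg15 (1.41 CPM), Tnfaip3 (27.6 CPM), Mx2 (1.89 CPM) and Rsad2 (3.77 CPM). Its summed levels of interferon-induced effectors (584 CPM), chemokines (124 CPM), oligodendrocyte markers (312 CPM) and microglia and macrophage markers (170 CPM) were also far above those of the other NTg libraries. Ifih1 was far below the others in NTg replicate 3 (0.401 CPM).

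For 18 rising genes the mSOD1 minus NTg difference on day 1 exceeded that on day 3 by a test of the difference between days itself. The log2 day differences were 2.54 for Art3, 2.46 for Usp18, 2.46 for Ccl2, 2.29 for Irf7, 1.71 for Oasl2, 1.53 for Nfkbia, 1.49 for Ifih1, 1.28 for Bst2 and 1.15 for Rnd1. They were 1.12 for Xaf1, 1.12 for Dtx3l, 1.03 for Ddx58, 0.96 for Irf1, 0.66 for Trim25, 0.65 for Irf9, 0.56 for Nfkb2, 0.49 for Csf1 and 0.42 for Mcam.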

How the results depend on the processing

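Over 24 alternatives no result reversed, and 30 of the 64 called genes lost their call in none of them. Against 62 rising and 2 falling genes, RLE scaling gave 62 and 1, no low-count filter 62 and 1, and DESeq2 76 and 9. The replicate block over all libraries gave 81 and 8, the block within day 131 and 58, and that block without NTg replicate 6 gave 163 and 72. The 12 libraries alone gave 35 and 0 (35 of the 64 called, 703 genes at an unadjusted p under 0.05, against 1058 in the fit of 36). With the block the 12 libraries gave 56 and 4, and 44 of the 64 were called. Without NTg replicate 6 the remaining 11, a setting added after seeing the data, gave 59 and 0 (10 lost, 805 genes at an unadjusted p under 0.05). Without both libraries that stood apart, NTg replicate 6 and wtSOD1 replicate 4 (88931151 reads), there were 83 and 5. Leaving out each library in turn gave 51 to 78 rising and 0 to 5 falling genes, the highest without NTg replicate 6 and no falling gene without NTg replicate 4 (920 at an unadjusted p under 0.05, edgeR). With 1 library left out 18 of the 64 lost their call at least once: Rsad2 with 9 of the 12 libraries, Gadd45b, Insig1, Irgm2, Mcam and Sdc4 with 8, 9430038I01Rik, A230050P20Rik and Axl with 7, Ddx60 and Shisa5 with 6, Ifitm3 with 5, Hap1 and Ifi35 with 4, Ccl7, Cdkn1a and Parp14 with 2 and Birc3 with 1. Without NTg replicate 6 none did. Genes whose difference between days passed numbered 35, against 406 and 1680 with the block over all libraries and within day, 1827 with the block within day and without NTg replicate 6, 70 without both libraries that stood apart, 99 with DESeq2 and 17 to 58 with a library left out (17 without NTg replicate 4, 20 without mSOD1 replicate 4, 56 without NTg replicate 6, 58 without mSOD1 replicate 3). Genes that differed between mSOD1 and wtSOD1 medium numbered 153, against 234, 577 and 710 with those blocks, 95 without both libraries and 87 to 174 with a library left out (87 without mSOD1 replicate 2, 100 without mSOD1 replicate 4). The cause of these moves was not tested. Among the 64 genes Oas1g and Oas1a, which had few reads, had the widest errors (0.48 and 0.47).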
